A study of Mus musculus and Homo sapiens with 19 samples.

Results

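The genes described here are 10 genes of antigen processing and presentation, taken by symbol from every table of the series. The members were Psmb8, Psmb9, Psmb10, Tap1, Tap2, Tapbp, B2m, Nlrc5, Erap1 and Cd274, in capitals in the human table. Each of the 10 had 1 row among 24421 genes in the knockdown table, among 57992 in the MDA-MB-231 table and among 55573 in the co-culture tables. All 10 passed the filter on low counts in each experiment.

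The study profiled mRNA of breast cancer cells with altered PHGDH, the first enzyme of serine synthesis from a glycolytic intermediate, and of tumour cells grown with endothelial cells. The first experiment set 4T1 cells, a mouse mammary tumour line, carrying a pLKO.1 shRNA against PHGDH (shPHGDH, 3 libraries) against 4T1 cells with the same vector and a scrambled shRNA (shSCR, 3 libraries). In the second, cells of the human breast cancer line MDA-MB-231 were labelled as carrying PHGDH cDNA in the pLHCX vector (3 libraries) or as control (3 libraries). In the third, the mouse mammary tumour lines 4T1 and EMT6.5 were grown with Bend3, a mouse endothelial line, or each line was grown alone, and the cells of a co-culture were separated by FACS before RNA extraction. This gave 1 library each of 4T1 with Bend3, EMT6.5 with Bend3, Bend3 with 4T1, Bend3 with EMT6.5, 4T1 alone, EMT6.5 alone and Bend3 alone. The labels do not say whether replicates were separate cultures, how many shRNA sequences were used or whether transduced cells were clones, so the p-values rest on library-to-library spread that may be technical.

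Cells show short peptides of their own proteins to CD8 T cells on MHC class I. The peptides are cut by the proteasome, in which the interferon-inducible subunits Psmb8, Psmb9 and Psmb10 can take the places of Psmb5, Psmb6 and Psmb7, and are pumped into the endoplasmic reticulum by the transporter Tap1-Tap2. There Erap1 trims them, Tapbp (tapasin) helps load them, and B2m is the light chain that every class I heavy chain needs, while Nlrc5 is the transactivator of class I genes and Cd274 encodes PD-L1, the ligand of the T cell checkpoint receptor PD-1.

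Psmb9, Tap1, Psmb8 and Tap2 lie in this order in 1 block of the mouse MHC, at chr17:34181987-34216321 on GRCm38 (GENCODE vM21), which spans 34.3 kb. Psmb9 is on the minus strand and the other 3 are on the plus strand, and the Psmb9 and Tap1 gene bodies overlap by 212 bases. The library kit was stranded, but the strand setting of the authors' counting was not given in the sources used here, so counts within that overlap are uncertain. Tapbp lies outside the block on the same chromosome, at 17:33915899-33929292, and its annotated span holds that of Zbtb22 on the same strand. B2m lies at 2:122147686-122153083, Erap1 at 13:74639568-74693201 and Cd274 at 19:29367455-29388095.

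RefSeq promoter windows on GRCm38.p6, which run from 250 bases before to 50 after a gene's start, were matched to 8 of the 10 members, all but Tap2 and Nlrc5. In this paragraph a start is the RefSeq start, which can differ from the GENCODE positions above. The windows of Erap1, Psmb8 and Tapbp begin after the GENCODE starts of these genes (74639568, 34197721 and 33915899). So does the window of Psmb9, chr17:34187281-34187580 on the minus strand. The GENCODE start of Psmb9, 34187764, lies outside this window and outside that of Tap1. The 8 windows were searched on both strands for 5 motifs. The first 3 were GAAA, any 2 bases and GAAA again (interferon response element, in 3.44% of 32851 windows), TTCNNNGAA (GAS, the STAT element, 8.30%) and the NF-kappaB motif (4.51%). The others were GGGCGG (GC box, 35.7%) and CCAAT (37.4%). Shown are the Tap1 window, which is the start of the MHC block genes Tap1 and Psmb9, and the windows of the 3 members that hold a match to 1 of the first 3 motifs; capitals mark motif matches on either strand. The Tap1 window, chr17:34187306-34187605 on the plus strand, shares 275 bases with the Psmb9 window read on the other strand. By their RefSeq starts both genes thus start from the same stretch. The Tap1 window holds a CCAAT box 222 and a GC box 176 bases before the Tap1 start.
Tap1: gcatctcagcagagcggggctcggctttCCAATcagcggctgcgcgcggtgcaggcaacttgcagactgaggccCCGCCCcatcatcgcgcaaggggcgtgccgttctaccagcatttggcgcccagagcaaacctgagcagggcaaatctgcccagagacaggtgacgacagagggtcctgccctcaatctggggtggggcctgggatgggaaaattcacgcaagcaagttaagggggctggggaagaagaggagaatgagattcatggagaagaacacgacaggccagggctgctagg
The Psmb8 window, chr17:34197945-34198244 on the plus strand, holds a GAS match, TTCCCAGAA, 97 bases before the start.
Psmb8: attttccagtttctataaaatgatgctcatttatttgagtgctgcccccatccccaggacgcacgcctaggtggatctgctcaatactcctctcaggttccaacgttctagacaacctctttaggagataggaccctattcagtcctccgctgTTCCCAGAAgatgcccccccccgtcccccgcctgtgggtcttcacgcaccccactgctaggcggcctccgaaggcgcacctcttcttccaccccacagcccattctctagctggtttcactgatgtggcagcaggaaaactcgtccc
The B2m window, chr2:122147437-122147736 on the plus strand, holds an interferon response element, GAAACTGAAA, 139 bases before the start and an NF-kappaB match 126 bases before it.
B2m: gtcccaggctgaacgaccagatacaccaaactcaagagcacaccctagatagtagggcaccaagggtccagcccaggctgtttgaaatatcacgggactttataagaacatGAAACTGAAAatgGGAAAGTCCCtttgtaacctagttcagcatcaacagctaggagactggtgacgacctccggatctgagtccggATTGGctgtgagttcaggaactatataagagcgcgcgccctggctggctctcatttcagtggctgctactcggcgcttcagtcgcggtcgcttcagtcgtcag
The Erap1 window, chr13:74639603-74639902 on the plus strand, holds an interferon response element on the minus strand that begins 4 bases before the start, and a GC box.
Erap1: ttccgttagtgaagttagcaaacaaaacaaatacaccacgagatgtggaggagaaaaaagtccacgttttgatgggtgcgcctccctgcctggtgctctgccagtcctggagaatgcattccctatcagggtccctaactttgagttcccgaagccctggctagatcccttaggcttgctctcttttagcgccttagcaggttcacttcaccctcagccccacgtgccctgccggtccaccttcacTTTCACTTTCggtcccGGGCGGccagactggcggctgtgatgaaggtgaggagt
The windows of Tap1, Psmb9, Psmb10, Tapbp and Cd274 held no match to the first 3 motifs. A match is a description of letters, not a site.

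A knockdown library held 12696658 to 20511658 assigned counts, an MDA-MB-231 library 19515146 to 23765884 and a co-culture library 4268428 to 7672654. In a co-culture library 48.2% to 55.3% of the records were listed as not uniquely aligned, against 3.54% to 3.70% in an MDA-MB-231 library. These records are not among the assigned counts, and their effect on the co-culture ratios, also those of the similar class I heavy chains, was not tested. Levels are CPM, which are counts scaled to library size with TMM, and they are not compared between the experiments, which were counted and scaled separately. Phgdh fell in shPHGDH libraries (20.9 ± 0.746 CPM, against 168 ± 4.58 CPM in shSCR, SD, n = 3 each). PHGDH went against the label in MDA-MB-231: it was at 5.99, 4.53 and 5.71 CPM in the libraries labelled PHGDH-overexpressing and at 15.5, 15.7 and 18.3 CPM in the controls (log2 fold change -1.61, adjusted p = 5.76e-10). Endothelial markers summed to 9565 to 12085 CPM in the 3 Bend3 libraries and to 58.0 to 146 CPM in the 4 tumour libraries. Of 8 epithelial markers, 3 reached 1 CPM in each EMT6.5 library, and the 8 summed to 536 CPM with Bend3 and 583 CPM alone. Esrp1, Cldn7 and Krt5 were at 0 in EMT6.5. In 4T1, where Krt5 was at 0 too, 7 of the 8 reached 1 CPM, with sums of 1778 CPM with Bend3 and 1291 CPM alone. The 6 fibroblast markers summed to 897 CPM in EMT6.5 with Bend3 and 1450.4 CPM in EMT6.5 alone, with Col3a1, Dcn and Lum at 0. ShPHGDH replicate 1 differed more from its fellow replicates (chi-square over degrees of freedom 14.9 and 20.8) than these did from each other (1.76).

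In 4T1 cells with shPHGDH 7 of the 10 members fell: both inducible proteasome subunits of the MHC block, both subunits of the peptide transporter, the transactivator Nlrc5 and, by smaller amounts, B2m and Psmb10. Tapbp and Erap1 rose, and Cd274 did not pass the test. Of the 10 members, 2 rose, 7 fell and 1 did not pass, with a median log2 fold change of -0.49 against -0.01 over the 11568 genes tested. Among all tested genes 59.7% were called, 30.1% as higher and 29.6% as lower, so a call by itself is common here. Groups did not overlap for 9 of the 10 members, against 63.2% of tested genes.

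Psmb8, the inducible counterpart of Psmb5, was at 29.1, 30.1 and 30.2 CPM in shPHGDH libraries and at 55.8, 53.5 and 54.0 CPM in shSCR libraries. Psmb9, the counterpart of Psmb6, was at 1.39, 2.07 and 1.92 CPM in shPHGDH and at 4.31, 2.85 and 4.01 CPM in shSCR. Psmb10, the counterpart of Psmb7, was at 30.3, 29.0 and 30.3 CPM in shPHGDH and at 33.8, 32.8 and 33.3 CPM in shSCR. For each of the 3 subunits every shPHGDH library lay below every shSCR library, but by little in Psmb10. Psmb8 was 1.82-fold lower (log2 -0.87, SE 0.052, edgeR's quasi-likelihood test with Benjamini-Hochberg adjustment, adjusted p = 4.62e-14) and Psmb9 2.07-fold lower (log2 -1.05, SE 0.202, adjusted p = 5.99e-05). Psmb9 rested on 87 counts in all in shPHGDH and 189 in shSCR. Psmb10 was 1.11-fold lower (log2 -0.16, SE 0.058, adjusted p = 0.0235). It no longer passed with sequencing lane as a covariate (adjusted p = 0.113), by DESeq2 (0.0858), without shSCR replicate 1 (0.061) and without shPHGDH replicate 2 (0.0888). By the column headers, shSCR replicates 1 and 2 were on lane 5, and shSCR replicate 3 and all shPHGDH libraries on lane 6. Lane is thus largely confounded with the knockdown. Within lane 6, which holds 1 shSCR library, the log2 fold change of Psmb10 was -0.16.

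**Figure D1:**
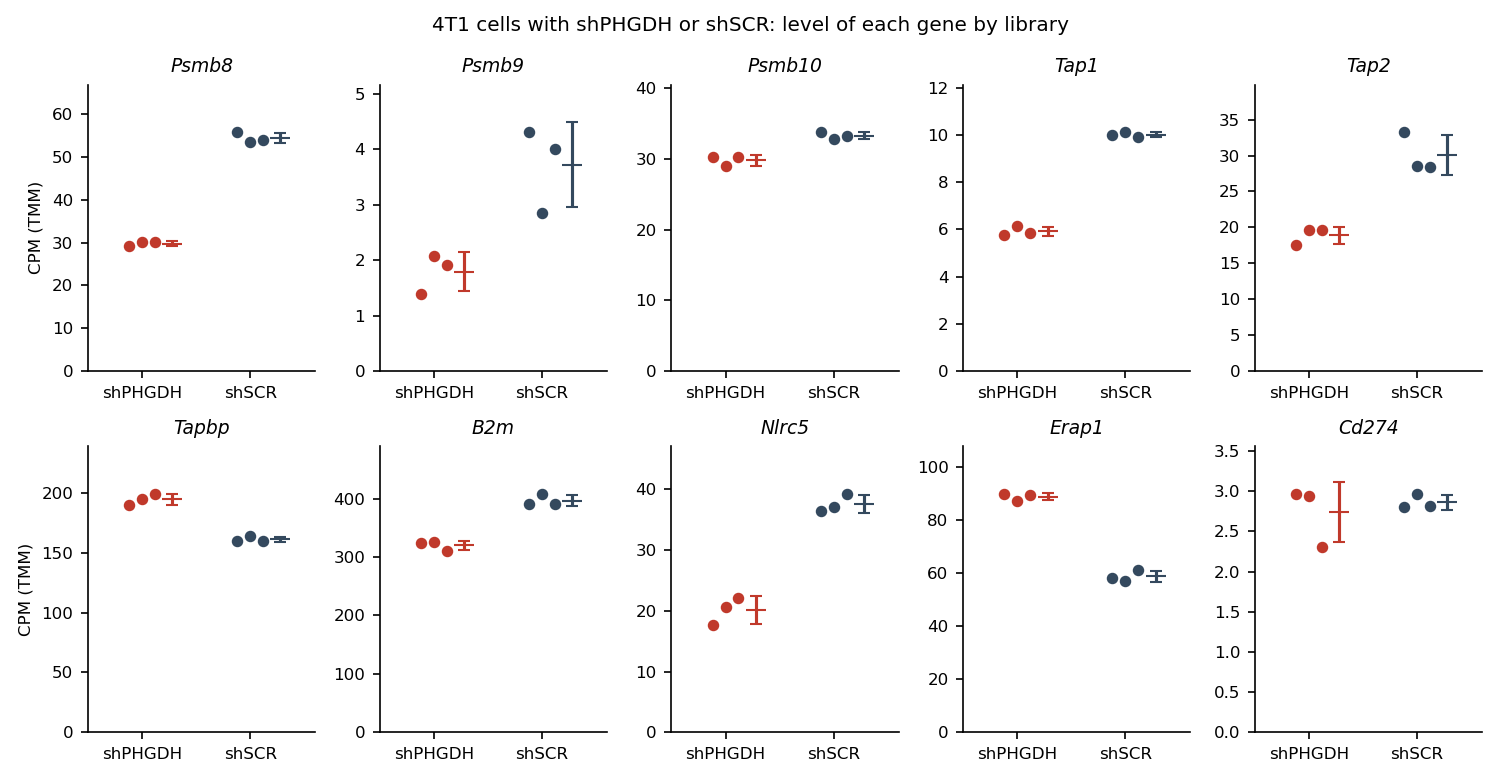
Level of each of the 10 genes in CPM with TMM scaling (y axis, from 0) in the 3 shPHGDH and the 3 shSCR libraries of 4T1 cells; points are libraries and bars the mean ± SD. The groups separate in every gene but Cd274, with shPHGDH lower in 7 genes and higher in Tapbp and Erap1.

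The constitutive subunits had small changes or rose. Psmb5 rose to 31.8 ± 1.76 CPM in shPHGDH, against 23.25 ± 0.665 CPM in shSCR (SD, n = 3 each, log2 0.46, adjusted p = 6.76e-07). Psmb6 (log2 -0.08, adjusted p = 0.0376) and Psmb7 (log2 -0.14, adjusted p = 0.000953) fell by small amounts. Per kilobase of exon, the ratio of Psmb8 to Psmb5 was 0.259, 0.251 and 0.240 in shPHGDH libraries and 0.618, 0.619 and 0.630 in shSCR libraries. The ratio of the means was 0.401, and the groups did not overlap (exact two-sided permutation test, p = 0.1, the smallest that 3 against 3 allows). The ratio of Psmb9 to Psmb6 was also lower, at 0.00809 ± 0.00178 in shPHGDH and 0.0158 ± 0.00311 in shSCR (SD, n = 3 each, exact permutation p = 0.1). That of Psmb10 to Psmb7 was 0.431 ± 0.0107 in shPHGDH and 0.437 ± 0.0148 in shSCR (SD, n = 3 each, exact permutation p = 0.7). The PA28 activator subunit Psme1 rose to 77.0 ± 2.32 CPM in shPHGDH, against 53.2 ± 2.05 CPM in shSCR (SD, n = 3 each, log2 0.53, adjusted p = 1.63e-11). Its partner Psme2 rose to 51.4 ± 0.945 CPM in shPHGDH, against 36.8 ± 3.04 CPM in shSCR (SD, n = 3 each, log2 0.47, adjusted p = 2.87e-08).

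Tap1 was at 5.75, 6.13 and 5.85 CPM in shPHGDH libraries and at 9.99, 10.1 and 9.90 CPM in shSCR libraries. Tap2, its partner in the transporter, was at 17.6, 19.6 and 19.6 CPM in shPHGDH and at 33.2, 28.5 and 28.4 CPM in shSCR. The groups were apart in both genes, with shSCR replicate 1 highest in Tap2. Tap1 was 1.70-fold lower (log2 -0.76, SE 0.105, adjusted p = 4.54e-07) and Tap2 1.58-fold lower (log2 -0.66, SE 0.073, adjusted p = 1.08e-08).

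The 4 block genes had lower log2 fold changes than any other tested gene nearby. Of 32 other tested genes that start within 500 kb of Tap1, 7 rose, 5 fell and 20 did not pass, and their median log2 fold change was -0.03. The nearest tested genes on the 2 sides were H2-DMa, a class II peptide-loading chain (log2 -0.39, adjusted p = 0.071), and Gpsm3, a regulator of G-protein signalling that rose (log2 3.64, adjusted p = 1.05e-16). H2-K1, a class I heavy chain in the same stretch, had a log2 fold change of -0.01 (adjusted p = 0.779). Zbtb22, within the span of Tapbp, had a log2 fold change of 0.00 (adjusted p = 0.973).

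**Figure D2:**
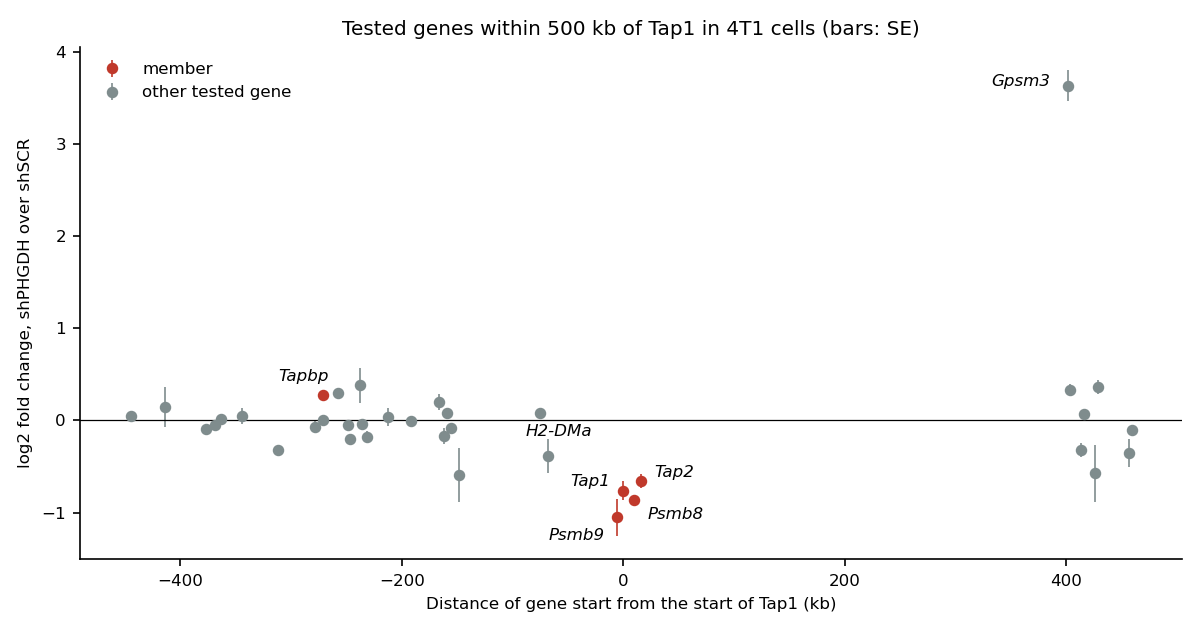
log2 fold change in shPHGDH over shSCR (y axis, bars are SE) of each tested gene against the distance of its start from that of Tap1 in kb (x axis). The 4 block members lie between -1.05 and -0.66, below the other tested genes of the window, whose lowest value is -0.59.

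Tapbp was at 189.7, 195 and 199 CPM in shPHGDH libraries and at 159.7, 164 and 159.6 CPM in shSCR libraries. Erap1, the trimming aminopeptidase, was at 89.8, 87.2 and 89.3 CPM in shPHGDH and at 58.0, 57.1 and 61.2 CPM in shSCR. Both groups were apart, with shPHGDH higher in each. Tapbp rose 1.21-fold (log2 0.27, SE 0.032, adjusted p = 2.77e-08) and Erap1 1.51-fold (log2 0.59, SE 0.039, adjusted p = 2.62e-13). On chromosome 13, where Erap1 lies, 248 of 407 tested genes rose and 32 fell, with a median log2 fold change of 0.25, and the value of Erap1 relative to that median was 0.35.

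B2m was at 324, 325 and 311 CPM in shPHGDH libraries and at 391, 408 and 391 CPM in shSCR libraries. Nlrc5 was at 17.6, 20.6 and 22.1 CPM in shPHGDH and at 36.3, 37.0 and 39.2 CPM in shSCR. Every shPHGDH library lay below every shSCR library in both genes. B2m was 1.24-fold lower (log2 -0.31, SE 0.027, adjusted p = 1.09e-10) and Nlrc5 1.86-fold lower (log2 -0.90, SE 0.071, adjusted p = 1.63e-11). On chromosome 8, 52 of 625 tested genes rose and 435 fell, with a median of -0.25. Nlrc5 lies there at 8:94434356-94527272 and Psmb10 at 8:105935735-105938444, and relative to that median Nlrc5 was at -0.64 and Psmb10 at 0.10, the opposite direction. What moves whole chromosomes between these libraries was not tested. Cd274 was at 2.97, 2.94 and 2.31 CPM in shPHGDH and at 2.80, 2.96 and 2.81 CPM in shSCR, and the groups overlapped (log2 -0.09, SE 0.177, adjusted p = 0.696).

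Per kilobase of exon, B2m ranked first and Tapbp second of the members in every knockdown library, at 372 ± 9.40 and 53.6 ± 1.30 CPM per kb in shPHGDH and 461 ± 11.8 and 44.4 ± 0.638 CPM per kb in shSCR (SD, n = 3 each). Psmb10 was the third in both groups. In shPHGDH the order went on with Erap1, Psmb8, Tap2, Nlrc5, Tap1, Cd274 and Psmb9. In shSCR Psmb8, at 16.1 ± 0.363 CPM per kb, stood ahead of Erap1 at 8.07 ± 0.293 and Tap2 at 7.95 ± 0.733, which did not differ beyond their spread. Nlrc5, Tap1, Psmb9 and Cd274 followed, and the Psmb9 and Cd274 ranges overlapped there.

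Beyond the 10 members, most class I heavy chains did not pass. Of 10 tested, 3 fell and 7 did not pass. H2-Q4 (log2 -0.17, adjusted p = 0.00121) and H2-D1, at 115 ± 2.47 CPM in shPHGDH and 124 ± 0.909 CPM in shSCR (SD, n = 3 each, adjusted p = 0.00839), fell slightly, and the third was H2-T10, named after its value was seen (log2 -0.76, at 1.99 CPM in shPHGDH and 3.49 CPM in shSCR). H2-K1 was at 131 ± 1.89 CPM in shPHGDH and 132 ± 2.95 CPM in shSCR (SD, n = 3 each). Heavy chain genes are near-identical copies, and how reads were split among them is uncertain.

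Genes of loading and folding in the endoplasmic reticulum mostly rose, by small amounts (median log2 fold change 0.15). Of 8 tested, 6 rose, 1 fell and 1 did not pass, where 30.1% of all tested genes rose and 29.6% fell. The translocon subunit Sec61a1 (log2 0.29), the folding sensor Uggt1 (0.25) and the chaperone Hspa5 (0.20) rose, and calreticulin, Calr, fell (-0.16). Of 12 constitutive proteasome and activator genes, 5 rose, 4 fell and 3 did not pass, with Psme4, the PA200 activator, falling (-0.30). Of 6 other peptidases 1 rose, Tpp2 (0.07), and 3 fell, Npepps (-0.22), Thop1 (-0.17) and Lap3 (-0.09).

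Of 31 regulators of the pathway tested, 10 rose, 9 fell and 12 did not pass, with a median log2 fold change of 0.01. These shares are close to the 30.1% and 29.6% over all tested genes, so the counts say nothing particular to the regulators. Stat2, a transcription factor of interferon signalling, fell (log2 -0.58, adjusted p = 9.59e-08). Rfx5 (-0.47) and Rfxank (-0.52), subunits of the factor that binds MHC promoters with Nlrc5, fell as well. Irf1, an activator of the Tap1 and Psmb9 promoters, rose slightly, to 80.6 ± 3.11 CPM in shPHGDH, against 73.5 ± 2.81 CPM in shSCR (SD, n = 3 each, log2 0.14, adjusted p = 0.00346), and Socs3, an inhibitor of cytokine signalling, rose (0.56). Of 2 tested class II genes, Cd74, the invariant chain, fell to 10.8 ± 0.596 CPM in shPHGDH, against 17.3 ± 1.11 CPM in shSCR (SD, n = 3 each, log2 -0.66, adjusted p = 1.26e-07).

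Other checkpoint ligands and genes of PD-L1 handling changed in both directions. Of 8 tested, 3 rose, 3 fell and 2 did not pass. Cd276, also called B7-H3, rose to 123 ± 2.95 CPM in shPHGDH, against 87.9 ± 3.93 CPM in shSCR (SD, n = 3 each, log2 0.49, adjusted p = 3.93e-12). Pvr, the ligand of Tigit and Cd226, rose (0.42), as did Cd47, the signal against uptake by macrophages (0.35), and Lgals9, a galectin, fell (-0.34). The 8 leukocyte markers, 3 of which were tested and called as higher, summed to 13.1 to 15.04 CPM in shPHGDH and 8.55 to 10.1 CPM in shSCR libraries, with Cd3e at 0 in each. Of 7 epithelial markers tested 5 fell and 2 rose (median log2 fold change -0.60), and they summed to 3186 to 3206 CPM in shPHGDH and 3293 to 3390 CPM in shSCR. The 6 fibroblast markers summed to 9.71 to 11.4 CPM in shPHGDH, with Lum at 0, and to 6.25 to 7.85 CPM in shSCR, with Dcn and Lum at 0; both of those tested rose. The 8 endothelial markers summed to 5.75 to 6.92 CPM in shPHGDH and 4.45 to 5.06 CPM in shSCR, and the 1 tested rose. The part of other cell types in these results was not tested.

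In MDA-MB-231 PSMB8, PSMB9, TAP1, B2M and ERAP1 did not pass the test, while TAP2, TAPBP and CD274 fell and NLRC5 and PSMB10 rose in the libraries labelled PHGDH-overexpressing. Of the 10 members 2 rose, 3 fell and 5 did not pass, with a median log2 fold change of -0.08 against -0.01 over 17663 tested genes. Among all tested genes 44.5% were called, 21.6% as higher and 22.9% as lower. Groups did not overlap for 6 of the 10 members, against 52.5% of tested genes. Since PHGDH mRNA was lower in the libraries labelled PHGDH-overexpressing, every direction here follows the label and not the measured PHGDH level.

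CD274 was at 18.4, 18.3 and 15.7 CPM in the libraries labelled PHGDH-overexpressing and at 29.0, 31.3 and 27.9 CPM in the controls. TAP2 was at 114, 115 and 113 CPM with the PHGDH label and at 149, 152 and 143 CPM in the controls. TAPBP was at 109.6, 107 and 112 CPM with the PHGDH label and at 137, 138 and 142 CPM in the controls. In these 3 genes every PHGDH-labelled library lay below every control. CD274 was 1.68-fold lower (log2 -0.75, SE 0.088, adjusted p = 4.29e-07), TAP2 1.30-fold lower (log2 -0.38, SE 0.058, adjusted p = 1.34e-05) and TAPBP 1.27-fold lower (log2 -0.34, SE 0.058, adjusted p = 4.98e-05).

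NLRC5 was at 23.8, 22.1 and 23.6 CPM with the PHGDH label and at 18.2, 17.1 and 17.03 CPM in the controls. It rose 1.33-fold (log2 0.41, SE 0.086, adjusted p = 0.000499), with the groups apart. PSMB10, at 20.4, 18.1 and 19.5 CPM with the PHGDH label and 16.6, 16.0 and 16.6 CPM in the controls, rose 1.18-fold (log2 0.24, SE 0.089, adjusted p = 0.0358). It no longer passed when only library totals set the scale (adjusted p = 0.112), by DESeq2 (0.062), with low-count genes kept (0.0703) and without any 1 of 5 of the 6 libraries (0.0594 to 0.153).

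PSMB8, at 37.7, 39.1 and 40.4 CPM with the PHGDH label and 35.3, 35.3 and 40.1 CPM in the controls, did not pass (log2 0.08, adjusted p = 0.388). PSMB9 ranged over 10.6 to 14.0 CPM with the PHGDH label and 11.2 to 13.7 CPM in the controls (log2 -0.04, adjusted p = 0.801). B2M ranged over 394 to 462 CPM with the PHGDH label and 407 to 465 CPM in the controls (log2 -0.01, adjusted p = 0.903). The groups overlapped in all 3 genes. TAP1, at 37.6 to 42.6 CPM with the PHGDH label and 41.8 to 45.4 CPM in the controls (log2 -0.12, adjusted p = 0.193), and ERAP1, at 109.9 to 112 CPM with the PHGDH label and 117 to 124 CPM in the controls (log2 -0.12, adjusted p = 0.105), did not pass either. Scaled by library totals alone, both were called as lower (adjusted p = 0.0498 and 0.0147), and all calls then split into 3053 higher and 4900 lower, against 3816 and 4048 with TMM.

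**Figure D3:**
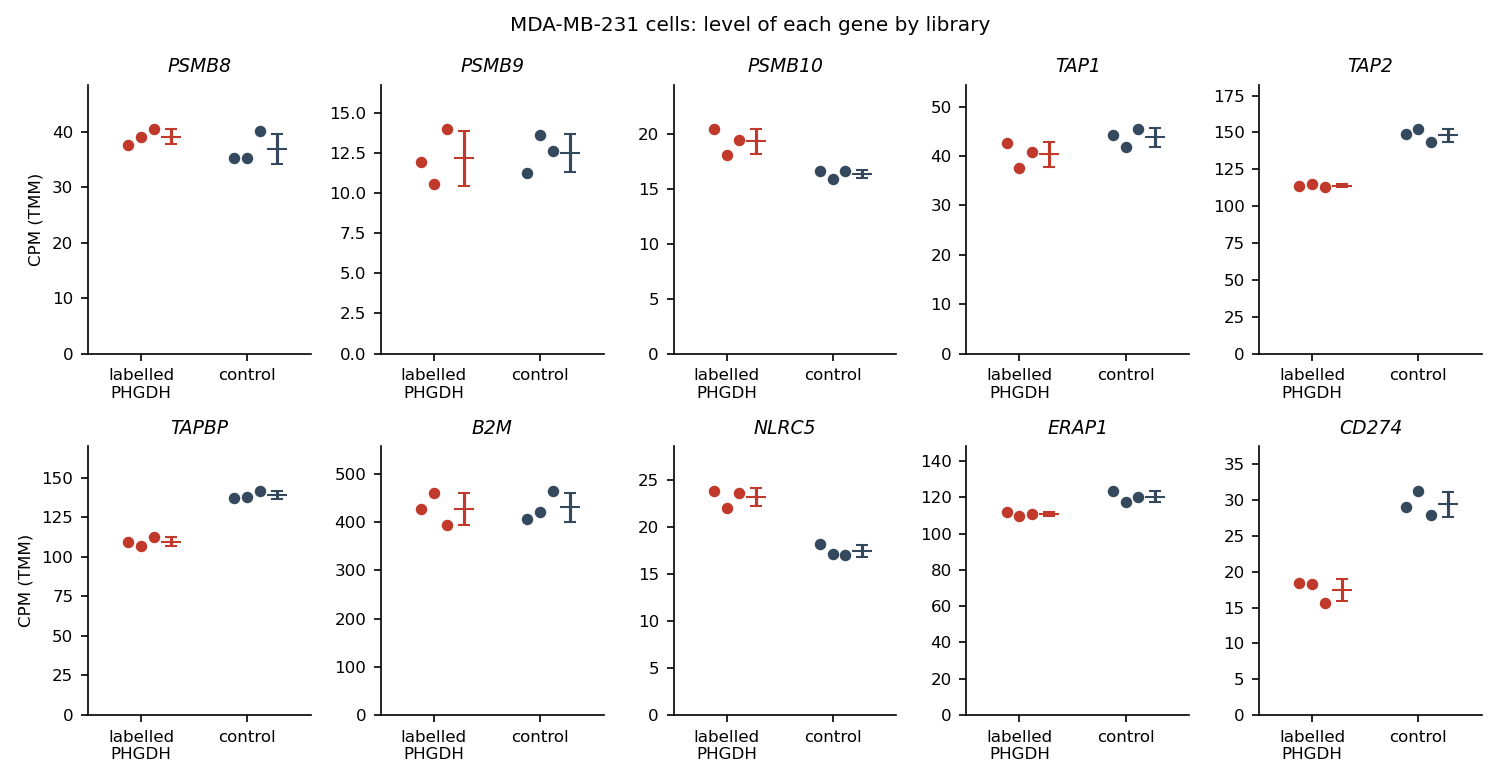
Level of each of the 10 genes in CPM with TMM scaling (y axis, from 0) in the 3 MDA-MB-231 libraries labelled PHGDH-overexpressing and the 3 controls; points are libraries and bars the mean ± SD. PHGDH-labelled libraries lie below the controls in CD274, TAP2, TAPBP and ERAP1 and above them in NLRC5 and PSMB10.

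The class I heavy chains moved unequally. HLA-B (log2 -0.30), HLA-C (-0.31) and HLA-E (-0.26) fell. HLA-F and HLA-G were called as higher; they were named after their values were seen and averaged under 5 CPM. Of 8 loading and folding genes 5 rose and 3 did not pass, with CANX, the chaperone calnexin, at a log2 fold change of 0.35, HSPA5 at 0.26, SEC61A1 at 0.18 and PDIA3, a disulphide isomerase, at 0.14. Of 12 constitutive proteasome and activator genes 5 rose, 1 fell and 6 did not pass; PSMB5 (0.25), PSMB7 (0.24) and PSME3 (0.26) rose and PSME4 fell (-0.51). PSMB6 (0.11, adjusted p = 0.132), PSME1 (0.07, adjusted p = 0.394) and PSME2 (-0.07, adjusted p = 0.423) did not pass. Of 8 peptidases 1 rose, the cytosolic THOP1 (0.55), and 4 fell, among them ERAP2, the second trimming enzyme of the endoplasmic reticulum (-0.49), TPP2 (-0.34) and LNPEP (-0.25).

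Class II genes, which present peptides from the endocytic route and are driven by the transactivator CIITA, rose as a group with the PHGDH label. All 8 that were tested rose, with a median log2 fold change of 0.75 against -0.01 over all tested genes. HLA-DRA was at 48.5 ± 1.34 CPM with the PHGDH label and 22.7 ± 0.700 CPM in the controls (SD, n = 3 each, log2 1.10, SE 0.074, adjusted p = 6.44e-11). HLA-DPA1 (log2 1.25), HLA-DRB1 (0.82) and HLA-DMB (0.68) also rose. CIITA itself, named after its value was seen, was at 29.9 ± 3.33 CPM with the PHGDH label and 21.5 ± 0.558 CPM in the controls (SD, n = 3 each, log2 0.47, adjusted p = 0.000153). The leukocyte markers summed to 107 to 114 CPM with the PHGDH label and 105 to 113 CPM in the controls, with CD3E and ITGAM at 0, and neither of the 2 tested was called. The epithelial markers summed to 1243 to 1396 CPM with the PHGDH label, with KRT14 and KRT5 at 0, and to 876 to 892 CPM in the controls, with KRT5 at 0, and of 4 tested 2 rose and 2 fell. The endothelial markers summed to 138 to 147 CPM with the PHGDH label and 164 to 166 CPM in the controls, with CDH5 at 0, and of 5 tested 2 rose and 3 fell. The fibroblast markers summed to 11.1 to 12.8 CPM with the PHGDH label, with COL3A1 and DCN at 0, and to 7.26 to 9.55 CPM in the controls, with DCN at 0, and 1 of 2 tested rose. The part of these differences in the class II result was not tested.

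Of 31 tested regulators 4 rose, 11 fell and 16 did not pass. IFNGR1, a chain of the interferon-gamma receptor, fell (log2 -0.60, adjusted p = 3.24e-05), as did JAK2, a kinase that signals from it (-0.48), and CREB1, which binds MHC promoters (-0.52). NFKBIA, the inhibitor of NF-kappaB, rose (0.49). IRF1 (-0.14, adjusted p = 0.132) did not pass. Of 9 checkpoint genes 2 rose, 3 fell and 4 did not pass: CD276 rose to 65.2 ± 2.48 CPM with the PHGDH label, against 32.2 ± 1.27 CPM in the controls (SD, n = 3 each, log2 1.02, adjusted p = 1.06e-10). CD47 (-0.29) and CMTM6, which keeps PD-L1 at the cell surface (-0.23), fell.

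In co-culture each condition had 1 library, so ratios come without a test and their 95% exact intervals cover counting error only. The tumour lines grown with Bend3 had more of the transporter and of Psmb8 than when grown alone, in both lines. In 4T1, Tap1 was the only member past 2-fold, 1 of 9 with a mean of at least 5 CPM, against 25.6% of 10215 such genes (14.9% higher, 10.7% lower). In EMT6.5, 0 of 9 were past 2-fold, against 11.9% of 10317 genes (5.44% higher, 6.47% lower). The intervals of 5 members lay above 1 and those of 2 below it in 4T1, against 36.4% and 32.1% of genes (68.6% in all). In EMT6.5 those of 6 lay above 1 and that of 1 below it, against 29.1% and 32.1% (61.2% in all).

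Tap1 was at 46.4 CPM in 4T1 with Bend3 and 16.9 CPM in 4T1 alone, a ratio of 2.75 (2.098 to 3.65). In EMT6.5 it was at 98.1 CPM with Bend3 and 55.6 CPM alone, a ratio of 1.76 (1.54 to 2.02). Tap2 had ratios of 1.44 (1.24 to 1.67) in 4T1 and 1.81 (1.61 to 2.05) in EMT6.5. Both subunits of the transporter were higher with Bend3 in each line. Psmb8 was at 99.5 CPM in 4T1 with Bend3 and 65.2 CPM in 4T1 alone, a ratio of 1.52 (1.31 to 1.78), and at 279 CPM in EMT6.5 with Bend3 and 182 CPM in EMT6.5 alone, a ratio of 1.54 (1.42 to 1.66). Psmb9 had ratios of 1.40 (1.06 to 1.86) in 4T1 and 1.19 (1.05 to 1.35) in EMT6.5. B2m was at 2252 CPM in 4T1 with Bend3 and 1492 CPM in 4T1 alone (1.51, 1.46 to 1.56), and at 3437 CPM in EMT6.5 with Bend3 and 2918 CPM in EMT6.5 alone (1.18, 1.15 to 1.202). These 3 genes were higher with Bend3 in both lines as well.

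The other members did not move one way. Psmb10 was at 31.1 CPM in 4T1 with Bend3 and 44.3 CPM in 4T1 alone (0.703, 0.558 to 0.882), but at 66.0 CPM in EMT6.5 with Bend3 and 54.7 CPM in EMT6.5 alone (1.21, 1.04 to 1.40). Nlrc5 was at 7.30 CPM in 4T1 with Bend3 and 13.7 CPM in 4T1 alone (0.532, 0.332 to 0.836), and at 40.0 CPM with Bend3 and 39.5 CPM alone in EMT6.5 (1.01, 0.837 to 1.22). Tapbp had a ratio of 1.02 (0.948 to 1.11) in 4T1 and of 0.714 (0.679 to 0.751) in EMT6.5. Nlrc5 was thus lower with Bend3 in 4T1 while the 4 genes of the MHC block were higher there. The intervals of Erap1 and Cd274 held 1 in both lines, and Cd274 rested on 17 counts with Bend3 and 10 alone in 4T1, and on 15 with Bend3 and 13 alone in EMT6.5.

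What the 2 lines shared was fitted with edgeR with the line as a covariate, which leaves 1 residual degree of freedom. None of the 10 members was called, against 0.292% of 12005 genes (0.167% higher, 0.125% lower). At an unadjusted p under 0.05 there was 1 of the 10 members and 966 of the 12005 genes, and DESeq2 called 0 members. Tap1 had a log2 fold change of 1.11 (SE 0.41, adjusted p = 0.477). RNA of the partner cells made up an estimated 1.95% of the library of 4T1 with Bend3 and 1.61% of that of EMT6.5 with Bend3, and subtracting it left the number of members past 2-fold at 1 and 0.

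**Figure D4:**
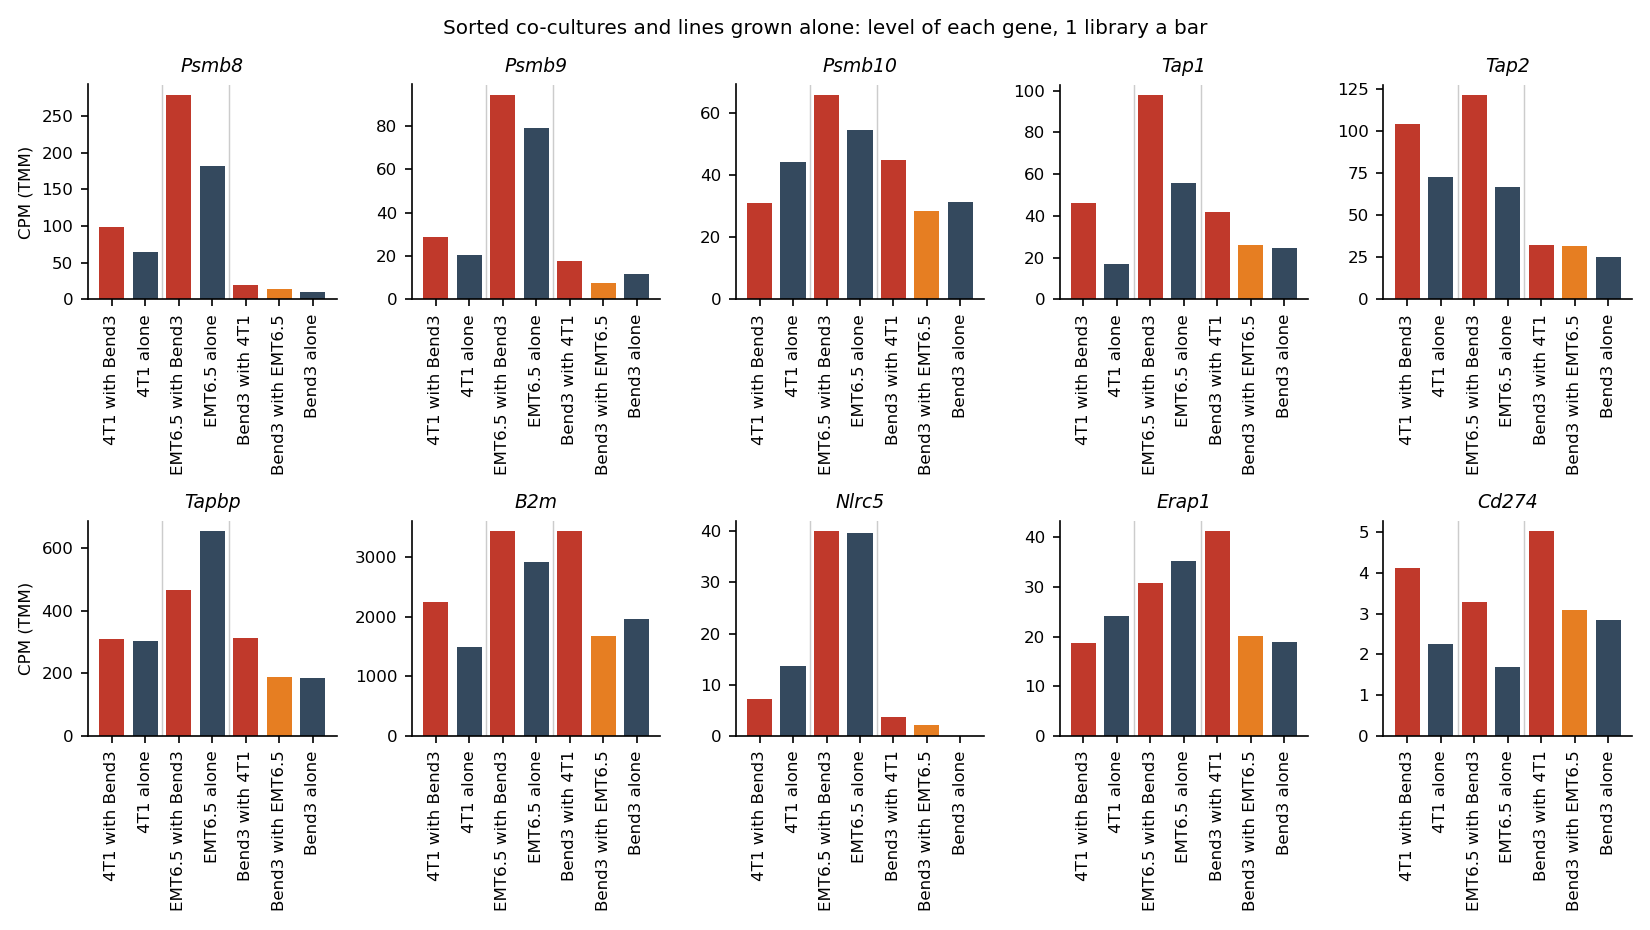
Level of each of the 10 genes in CPM with TMM scaling (y axis, from 0) in the 7 libraries of the co-culture experiment, 1 library a bar; red and orange bars are co-cultured cells and dark bars lines grown alone. Psmb8, Psmb9 and Nlrc5 are highest in EMT6.5, and Tap1 is higher with Bend3 than alone in 4T1 (46.4 and 16.9 CPM).

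In 4T1 14.9% of all genes were higher and 10.7% lower past 2-fold, so such a ratio is common here. Of 31 regulators 6 were higher and 3 lower, and of 12 constitutive proteasome and activator genes 2 and 1. Of 8 loading and folding genes 2 were higher and 1 lower, and of 7 class I heavy chains 1 and 0. Of 7 checkpoint genes and of 2 class II genes 1 was higher and 1 lower, and of 6 peptidases 0 were past 2-fold. H2-T22, a non-classical class I gene, was at 24.3 CPM in 4T1 with Bend3 and 3.82 CPM in 4T1 alone, a ratio of 6.36, whereas H2-K1 (1.45) and H2-D1 (1.19) were within 2-fold. Psme1 (2.09) and Psme2 (2.16) were higher with Bend3 and Psme3, a nuclear activator, was lower (0.296). Calr (2.36) and Uggt1 (2.47) were higher and Hspa5 was lower (0.370). Among regulators the ratios of Socs1 (8.29), Irf8 (8.02), Tyk2 (6.97) and Rfxank (5.14) were above 2-fold. In 4T1 alone these 4 rested on 9, 24, 27 and 8 counts. Irf1 was at 127 CPM with Bend3 and 281 CPM alone (0.451, 0.406 to 0.4996). H2-DMa (4.61) was higher and Cd74 (0.448) lower, as was Nectin2, a ligand of Tigit (0.375), and Lgals9 was higher (2.099). In EMT6.5 5.44% of all genes were higher and 6.47% lower past 2-fold, and the genes of these lists past 2-fold were 6. Irf9 (2.43), Irf2 (2.00) and Rfxank (2.55) were higher with Bend3, and Irf8 (0.195), H2-Q7 (0.461) and Pvr (0.336) were lower.

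Over both culture conditions EMT6.5 had more Psmb8, Psmb9 and Nlrc5 than 4T1. Of the 10 members 3 were higher in EMT6.5 and 0 lower, against 5.66% and 4.52% of 12005 genes, or 10.2% in all (edgeR with culture condition as a covariate, 1 residual degree of freedom). Psmb9 was at 94.3 and 79.2 CPM in EMT6.5 with Bend3 and alone, against 28.7 and 20.5 CPM in 4T1 with Bend3 and alone (log2 1.81, SE 0.41, adjusted p = 0.0127). Psmb8 (log2 1.46, SE 0.371, adjusted p = 0.024) and Nlrc5 (log2 1.95, SE 0.504, adjusted p = 0.0263) were the other 2. Both EMT6.5 libraries lay above both 4T1 libraries in all 3 genes, but also in Psmb10, Tap1, Tapbp, B2m and Erap1, which were not called. The share of all genes separated in this way is not given here. The third inducible subunit, Psmb10, did not pass (log2 0.66, adjusted p = 0.421), Tap1 just missed the threshold (log2 1.37, adjusted p = 0.0566), and Cd274 had a log2 fold change of -0.39 (adjusted p = 0.884). DESeq2 called 2, without Nlrc5 (adjusted p = 0.0608), and with no filter on low counts Tap1 was called as well (0.027). Of 8 tested class I heavy chains H2-Q7 (2.70) and H2-T22 (1.93) were higher in EMT6.5, and Cd74 was too (2.21), while Irf9 was lower (-1.58).

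Endothelial Bend3 cells had more of most members after growth with 4T1 than alone. Of 8 members with a mean of at least 5 CPM, Erap1 and Psmb8 were past 2-fold, both higher, against 3.07% of 10155 genes higher and 2.04% lower (5.11% in all). The intervals of all 8 lay above 1, as did those of 23.1% of genes, while those of 21.8% lay below (45.0% in all). Erap1 was at 41.2 CPM in Bend3 with 4T1 and 18.8 CPM in Bend3 alone, a ratio of 2.19 (1.68 to 2.87). Psmb8 was at 20.1 CPM with 4T1 and 9.53 CPM alone, a ratio of 2.11 (1.45 to 3.12), which became 1.92 after subtracting the 2.24% of RNA estimated to come from 4T1. Both were higher with 4T1 beyond counting error.

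B2m in Bend3 was at 3433 CPM with 4T1 and 1960.5 CPM alone (1.75, 1.71 to 1.80), Tapbp had a ratio of 1.70 (1.56 to 1.85) and Tap1 of 1.69 (1.33 to 2.15). Psmb9 (1.49, 1.05 to 2.15), Psmb10 (1.43, 1.15 to 1.78) and Tap2 (1.29, 1.01 to 1.66) were also higher. The interval of Cd274 held 1 (1.76, 0.856 to 3.83). Nlrc5 had 19 counts with 4T1 and 0 alone. With the empty library set to the floor of 3 counts the ratio was 5.14, which is not a lower bound. Around the members, H2-K1 was at 103 CPM with 4T1 and 26.7 CPM alone, a ratio of 3.88 (3.16 to 4.80), and Stat2 (2.41) was past 2-fold. Irf1 had a ratio of 1.42 and H2-D1 of 1.49. The 8 epithelial markers summed to 31.9 CPM in Bend3 with 4T1, 6.93 CPM in Bend3 with EMT6.5 and 1.67 CPM in Bend3 alone.

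After growth with EMT6.5, most members in Bend3 cells had intervals that held 1. Of 8 members with a mean of at least 5 CPM, 0 were past 2-fold, against 2.47% of 10148 genes higher and 2.12% lower (4.59% in all). Past 1.5-fold were 4 members in 4T1 with Bend3, against 48.3% of genes, 3 in EMT6.5 with Bend3, against 30.7%, 5 in Bend3 with 4T1, against 17.4%, and 2 in Bend3 with EMT6.5, against 17.1%. Intervals lay apart from 1 in 3 of the 8 members, against 43.6% of such genes. That of Psmb8 lay above 1 (14.4 CPM with EMT6.5 and 9.53 CPM alone, 1.52, 1.02 to 2.28), and those of B2m (0.854, 0.829 to 0.881) and Psmb9 (0.647, 0.416 to 0.999977) lay below it, that of Psmb9 barely. Subtracting the 1.72% of RNA estimated to come from EMT6.5 brought the ratio of Psmb8 to 1.03, which left almost no difference from Bend3 alone. Nlrc5 had 11 counts with EMT6.5 and 0 alone, a ratio of 2.96 over the same floor, which again is not a lower bound. Partner RNA was not subtracted from this ratio, and Nlrc5 was at 40.0 CPM in EMT6.5 with Bend3 and 2.12 CPM in Bend3 with EMT6.5. The intervals of Psmb10, Tap1, Tap2, Tapbp and Erap1 held 1. H2-K1 (1.25) and Irf1 (0.974) were within 2-fold. Both Bend3 comparisons share the library of Bend3 alone. A fit of both partners against it with edgeR (1 residual degree of freedom, the lone monoculture assumed to vary like the co-cultures) called 0 of 10 members and 0 of 12410 genes; 1 member and 953 genes had an unadjusted p under 0.05, DESeq2 called 0 members and 29 genes, and edgeR with library totals 0 members and 60 genes (36 higher, 24 lower).

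Per kilobase of exon, B2m ranked first and Tapbp second among the members in all 7 co-culture libraries too. Psmb8 was the third in both EMT6.5 libraries and in 4T1 with Bend3, while Psmb10 was the third in 4T1 alone and in the 3 Bend3 libraries. The ratio of Psmb8 to Psmb5 was 1.88 in 4T1 with Bend3 and 1.04 in 4T1 alone. It was 3.27 in EMT6.5 with Bend3 and 1.40 in EMT6.5 alone. In Bend3 it was 0.407 with 4T1, 0.317 with EMT6.5 and 0.127 alone. This ratio was above 1 in the 4 tumour libraries and below 1 in the 3 Bend3 libraries. It was higher in each co-culture than in the line alone. Psmb5 was lower in each co-culture, but in 4T1 its interval held 1 (14.1 CPM with Bend3, 16.6 CPM alone, 58 and 74 counts). It was at 22.7 CPM in EMT6.5 with Bend3 and 34.4 CPM in EMT6.5 alone. In Bend3 it was at 13.1 CPM with 4T1, 12.1 CPM with EMT6.5 and 20.005 CPM alone. Partner RNA was not subtracted here. Subtracting it left Psmb8 in Bend3 with EMT6.5 at a ratio of 1.03 over Bend3 alone. The side of 1 rests on exon lengths of 3.381 kb (Psmb8) and 0.899 kb (Psmb5). The ratio of Psmb9 to Psmb6 stayed below 1 in all 7 libraries: 0.134 in 4T1 with Bend3 and 0.0906 in 4T1 alone, 0.301 in EMT6.5 with Bend3 and 0.214 in EMT6.5 alone. In Bend3 it was 0.0753 with 4T1, 0.0302 with EMT6.5 and 0.0366 alone, so it was lower with EMT6.5 than alone. The ratio of Psmb10 to Psmb7 was 2.02 in 4T1 with Bend3 and 2.16 in 4T1 alone, and 2.48 in EMT6.5 with Bend3 and 1.75 in EMT6.5 alone. In Bend3 it was 1.83 with 4T1, 1.26 with EMT6.5 and 1.17 alone.

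**Figure D5:**
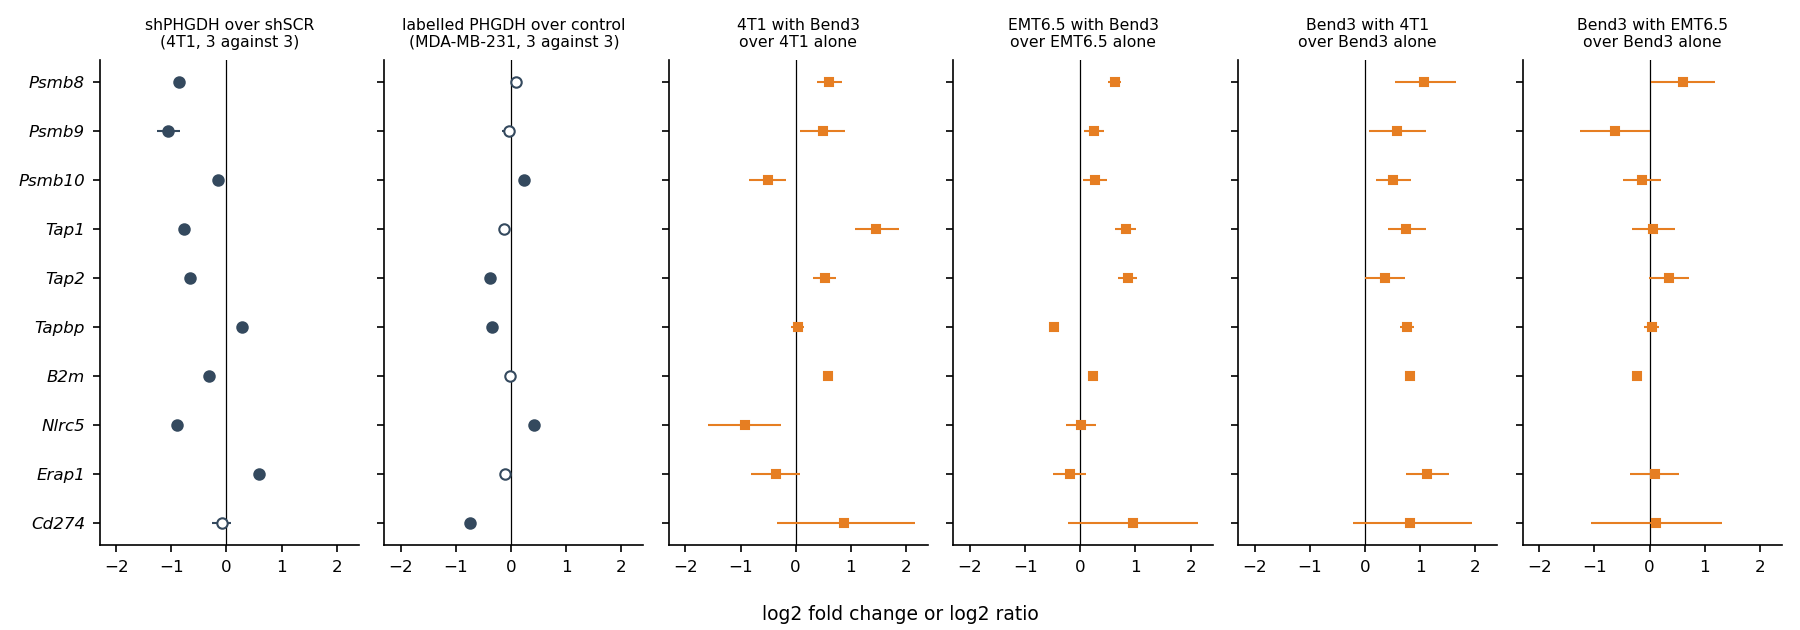
log2 fold change with SE (circles, filled where called at an adjusted p under 0.05) in the 2 replicated experiments, and log2 ratio with 95% counting interval (squares, no test) in the 4 co-culture comparisons, for each of the 10 genes. Nlrc5 has no point in Bend3, where it had 0 counts in the library grown alone; the MHC block genes lie left of 0 in the knockdown (-1.05 to -0.66).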

How the data were processed

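The deposited values were unnormalised counts per gene. The submitters' processing notes name Trim Galore 0.5.0, HISAT2 2.1.0 and HTSeq, and GRCm38 as the mouse genome. Neither the human genome nor the gene models and the strand setting of the counting were given in the sources used here. Of the library columns in the knockdown table, 10 matched no label and were not used. In the MDA-MB-231 table the control columns are headed SCR. They were read as the libraries titled CTRL, the only other group of that line. Reads of 50 bases from 1 end came from stranded mRNA libraries, per the labels.

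Each replicated experiment was fitted over all genes with edgeR 4.0.16 in R 4.3.3 (limma 3.58.1), with the default filter on low counts, TMM scaling and the quasi-likelihood F-test. A call needed an adjusted p (Benjamini-Hochberg) under 0.05, and no replicate block was used. The fit was tested on simulated counts. Co-culture ratios were CPM ratios with 95% exact intervals, and a gene counted as past 2-fold only with a mean of at least 5 CPM over its 2 libraries. Where a library had 0 counts a floor of 3 counts was used. To estimate the share of partner RNA, genes were used that reached 50 CPM in the partner while not exceeding 0.5 CPM in the host line alone. Without molecular identifiers, intervals cover counting error only, and a ratio over the floor is not a lower bound. GENCODE vM21 (GRCm38) gave exon lengths and positions, with 96.5% of tested knockdown genes placed. The alternatives were DESeq2 1.42.0, its size factors, library totals, no low-count filter, a replicate block, lane, chromosome medians, each replicate left out, partner RNA subtracted, a 1.5-fold limit and no CPM minimum. Python 3.11.15, pandas 2.3.3 and SciPy 1.17.1 did the rest.

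Of other pathway lists, the 4 genes with the largest change were named among those called (or past 2-fold) that averaged 5 CPM or more. Irf1, the constitutive catalytic subunits, Psme1, Psme2, H2-K1, H2-D1 and their human counterparts were named in any case. Some results of the rule are not reported here. The members and lists were chosen with earlier results of these data known.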

Additional observations from a re-analysis of the deposited data

Results flagged for a closer look

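In 3 members the co-culture ratio over the line alone pointed in opposite directions in the 2 cultures compared, with counting intervals on either side of 1. Each side is 1 library pair, and the difference was not tested. Psmb10 had a ratio of 0.703 in 4T1 with Bend3 and of 1.21 in EMT6.5 with Bend3. Psmb9 had a ratio of 1.49 in Bend3 with 4T1 and of 0.647 in Bend3 with EMT6.5, where the interval ended just under 1, at 0.999977. B2m had a ratio of 1.75 in Bend3 with 4T1 and of 0.854 in Bend3 with EMT6.5. For Psmb9 and B2m both ratios share the library of Bend3 alone.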

How the results depend on the processing

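The calls of 8 knockdown members and of 4 MDA-MB-231 members other than Psmb10 and PSMB10 were kept under every refit, and the members called numbered 8 to 9 and 4 to 6. Psmb10 reversed relative to its chromosome's median (0.10). Leaving out 1 library turned 3 uncalled genes: Cd274 ranged over -0.155 to 0.0482, PSMB9 over -0.151 to 0.0619 and B2M over -0.0645 to 0.0450. Genes called without 1 library ranged over 6321 to 6617 (knockdown) and 6597 to 8108 (MDA-MB-231). In the fit of both tumour lines 204 genes were called with no filter on low counts and 93 by DESeq2, against 35. In 4T1 with Bend3 the members past 2-fold numbered 2 with library totals (1 higher, 1 lower) and 4 at 1.5-fold (3 higher, 1 lower), and in EMT6.5 with Bend3 3 at 1.5-fold, all higher. In Bend3 with 4T1 they numbered 1 after subtracting partner RNA, 5 at 1.5-fold and 3 with no CPM minimum, all higher, and in Bend3 with EMT6.5 2 at 1.5-fold (1 higher, 1 lower) and 1 with no CPM minimum, higher. Replicate numbers did not pair the libraries (correlations of same-numbered deviations knockdown -0.05 to 0.00, MDA-MB-231 -0.02 to 0.04). With the replicate block 6585 knockdown genes and 9 members, and 7761 MDA-MB-231 genes and 5 members, were called. The co-culture fit of both tumour lines is itself paired by line. No paired analysis was possible in Bend3 because 1 library grown alone serves both partners. These fits, with 1 residual degree of freedom, were not refitted without a library. Psmb9, Cd274 and, in Bend3, Nlrc5 rest on few counts.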

Other observations

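Over the 7 co-culture libraries the 5 genes whose centred log2 CPM lay nearest to the members' mean profile, among 10815 genes compared, were Dpp9, a cytosolic dipeptidyl peptidase, at a root mean square distance of 0.131, Tab1, an adaptor of the kinase Tak1, at 0.132, Fhl3 at 0.196, Gm43696 at 0.207 and Erich1 at 0.220. Dpp9 was at 46.4 CPM in 4T1 with Bend3, 40.5 CPM in 4T1 alone, 92.2 CPM in EMT6.5 with Bend3, 65.0 CPM in EMT6.5 alone, 43.3 CPM in Bend3 with 4T1, 27.7 CPM in Bend3 with EMT6.5 and 20.5 CPM in Bend3 alone. Of the members themselves Tapbp lay nearest to that mean (0.260), and Nlrc5 (1.16) and Psmb8 (1.03) lay farthest. The distance is a description over libraries that share 3 cell lines.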
